A study of Mus musculus with 12 samples.

Results

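The interferon response genes are the transcripts that cells switch on after interferons bind their receptors. A list of 42 of them was measured in sternal cartilage pads, dissected without the xiphoid process, from untreated 4-wk-old mice of strain C57BL/6J. Each mouse gave 1 Affymetrix Mouse Gene ST 2.0 array. The 6 WT mice carried intact Timp genes. The 6 TIMPless mice, named QT in the study, were whole-body knockouts of Timp1, Timp2, Timp3 and Timp4, the inhibitors of matrix metalloproteases. Their Timp1 allele has stop codons in the third exon, the Timp2 allele lacks the first exon and sequence before it, the Timp3 allele lacks sequence of exons 2 and 3, and the Timp4 allele lacks exons 1 to 3. Each gene was taken as the brightest probe set that the array's annotation named for that gene alone, and 39 of the 42 genes had one, among 22180 genes and 41345 probe sets in all. Oas1a and Gbp2 share their probe sets with close paralogs and were not analysed here, nor was Ifi44. Irf8 and Ifi35 had 2 probe sets each and the other 37 genes had 1. The deposited values are log2 expression after robust multiarray average, in which all arrays are brought to 1 distribution, so a change shared by most genes would not be seen.

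Type I interferons are secreted when a cell senses foreign or misplaced nucleic acid. They signal through Ifnar1 and Ifnar2 to the factor ISGF3, which holds Stat2 and Irf9 and binds the interferon-stimulated response element (ISRE) in promoters. Interferon gamma signals through Ifngr1 and Ifngr2 and acts on promoters through the gamma-activated site (GAS). The genes induced this way sense viral RNA, degrade it or stop its translation, trap virus particles, or cut and carry peptides for antigen presentation. Many of them are also transcribed at a low level in unchallenged tissue, blood cells included.

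The tissue carried its defining transcripts. The mean log2 level of 12 cartilage markers was 11.49 to 11.85 in the WT mice and 11.21 to 11.62 in the TIMPless mice. Of the 12, 10 had a lower TIMPless mean, with a median difference of -0.10 over the list. The largest difference was that of Matn1, at -0.97 (limma adjusted p = 0.182). None of the 12 passed both thresholds used below, although Comp and Snorc passed the adjusted p alone, lower in TIMPless mice. All 4 Timp genes were called lower in TIMPless mice, with log2 differences of -1.66 to -0.87. Adipocyte and skeletal muscle markers were lower too, with 6 of 7 and 5 of 8 genes called. The mean level of the 7 adipocyte markers was 8.46 to 9.62 in WT and 7.62 to 8.26 in TIMPless mice, and that of the 8 muscle markers was 9.08 to 10.66 in WT and 7.91 to 9.01 in TIMPless mice. Of 12 neutrophil markers 0 were called, but all 12 had a higher TIMPless mean, with a median difference of 0.91. In bulk tissue, fewer cells of a type and less RNA per cell cannot be told apart. By Xist and the Y-linked gene Eif2s3y, WT 5 and WT 6 looked male and the other 10 mice female, and values without those 2 mice stand with the other alternatives at the end.

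Between genotypes, 2 of the 39 interferon response genes changed: Ifitm1 rose and Bst2 fell in TIMPless cartilage. A gene was called at an adjusted p under 0.05 in limma's moderated linear model, with Benjamini-Hochberg adjustment over all probe sets, and a fold change of at least 1.5. These 2 are 5.13% of the measured genes, beside 2.3% of all genes called in either direction, 0.875% called higher and 1.43% called lower. Ifitm1 and Bst2 were also the only members past the adjusted p alone, which 4.93% of all genes passed, and the only members whose WT and TIMPless mice did not overlap, as 4.92% of all genes did not.

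The other 37 genes differed by -0.42 to 0.39 on the log2 scale, and their lowest adjusted p was 0.0702. At an unadjusted p under 0.05 there were 9 members, 6 lower and 3 higher, which is 23.1% beside 20.5% of all genes. The TIMPless mean was below the WT mean in 28 of the 39 genes (71.8%), whereas it was below in 50.8% of all genes. Without WT 5 and WT 6, the mice that looked male, it was below in 24 (61.5%), beside 52.4% of all genes. With 1 mouse left out it was below in 26 to 32 of the 39, and without TIMPless 1 and TIMPless 4 together in 34. Marker lists of some blood cells were shifted the same way, with lower TIMPless means in 5 of 6 B cell markers (median difference -0.30) and 6 of 7 dendritic cell markers (median -0.11), and 0 called. The mean dendritic cell marker level ran from 7.13 to 7.35 in WT and from 7.03 to 7.27 in TIMPless mice. The lower mean was found in 4 of 10 macrophage and 3 of 9 T and NK cell markers. It was found in 0 of 12 neutrophil markers (median difference 0.91) and 0 of 3 erythroid markers (median 0.42). Vpreb1 of the B cell list, Xcr1 and Ccr9 of the dendritic cell list and Aif1 of the macrophage list were dim in both genotypes. So were Cd3d, Cd3g, Cd8a, Cd2, Gzma and Ncr1 of the T and NK cell list. The means of these markers lay under every array median, so the direction of their differences is uncertain. The part of blood cells in the shift of the interferon response genes was not tested. The median log2 difference of the members was -0.12, beside -0.00 over all genes. That median was -0.18 without WT 1, -0.07 without WT 2 and -0.095 without WT 5 and WT 6. It was -0.23 without TIMPless 1 and TIMPless 4 together, a choice made after seeing the data. The plot of differences shows most members just left of 0.

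**Figure D1:**
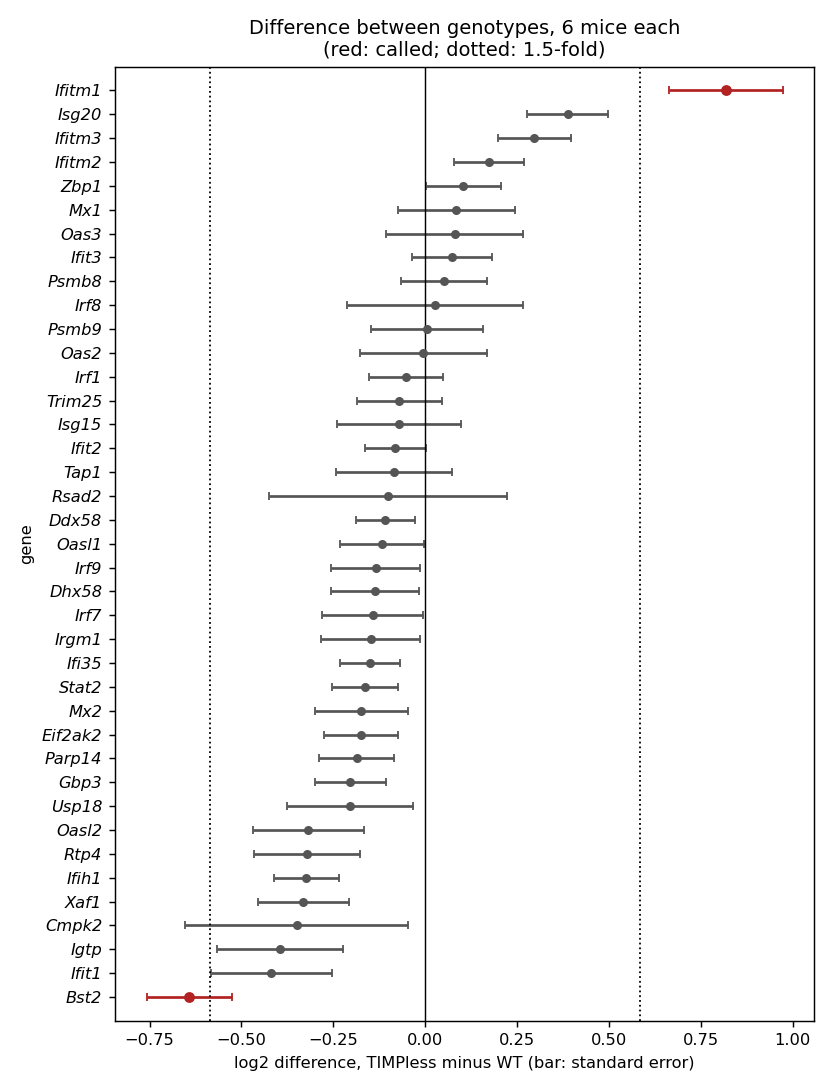
Log2 difference between genotypes, TIMPless minus WT, for the 39 measured interferon response genes. Points are differences of the means of 6 mice each, bars are limma standard errors, red marks the 2 called genes and dotted lines mark a 1.5-fold change; the 37 other genes lie between -0.42 and 0.39.

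Ifitm1 encodes a small membrane protein that hinders the fusion of viruses with the cell. Its log2 values were 6.21, 7.02, 6.79, 7.0, 7.08 and 6.81 in WT 1 to 6, and 7.75, 7.29, 7.56, 8.03, 7.47 and 7.72 in TIMPless 1 to 6. Every TIMPless mouse lay above every WT mouse, and WT 1 lay well below the other WT mice. The WT mean was 6.82 ± 0.32 and the TIMPless mean 7.64 ± 0.26 (SD, n = 6 each), and Ifitm1 rose by 0.82 on the log2 scale (SE 0.15, limma adjusted p = 0.012) or 1.76-fold. Without TIMPless 1 and TIMPless 4 together, an alternative chosen after seeing the data, the difference was 0.69 and the limma adjusted p was 0.0612, so the call was lost.

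Ifitm1 was highest in the TIMPless mice with the most neutrophil signal. The mean level of the 12 neutrophil markers, as a deviation from its mean over the 12 mice, was 1.64 in TIMPless 4 and 1.52 in TIMPless 1. It was lowest among the TIMPless mice in TIMPless 2, at -1.22, the mouse with the lowest TIMPless value of Ifitm1. That mouse had less neutrophil signal than 4 of the 6 WT mice, at -0.69, -0.13, -0.01 and 0.43, and its Ifitm1 value of 7.29 lay above the highest WT value of 7.08. The part of neutrophils in the rise of Ifitm1 was not tested. Over all mice the mean level of the neutrophil markers ran from 7.91 to 9.75 in WT and from 8.10 to 10.95 in TIMPless mice.

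Ifitm2 and Ifitm3, the paralogs beside Ifitm1, restrict viruses in endosomes. Ifitm3 had log2 values of 10.63, 10.70, 10.80, 10.47, 10.53 and 10.68 in WT and of 11.08, 10.94, 10.63, 10.99, 10.75 and 11.20 in TIMPless mice. TIMPless 3 and TIMPless 5 lay within the WT range and the other 4 above it. The difference was 0.30 (SE 0.10, limma adjusted p = 0.134). For Ifitm2 it was 0.17 (SE 0.10, limma adjusted p = 0.377). All 3 Ifitm members thus had higher TIMPless means, with 1 of the 3 past the test.

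Bst2 encodes tetherin, which holds budding virus particles on the cell surface. Its log2 values were 6.28, 6.82, 6.62, 6.37, 6.52 and 6.54 in WT 1 to 6, and 5.52, 5.91, 6.21, 5.78, 5.92 and 5.96 in TIMPless 1 to 6. The highest TIMPless mouse, TIMPless 3, lay just below the lowest WT mouse, WT 1. The WT mean was 6.53 ± 0.19 and the TIMPless mean 5.88 ± 0.23 (SD, n = 6 each), and Bst2 fell by 0.64 on the log2 scale (SE 0.12, limma adjusted p = 0.00955), 1.56-fold lower. The TIMPless mean lay under the median of every array, 6.15 to 6.20, where a probe set is not shown to be above background, so the size of the change is not exact. Its fold change was close to the threshold. Without WT 2 the difference was -0.58 and without TIMPless 1 it was -0.57, both under 1.5-fold, with limma adjusted p-values of 0.0193 and 0.0161. Without TIMPless 1 and TIMPless 4 together it was -0.53 (limma adjusted p = 0.04).

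**Figure D2:**
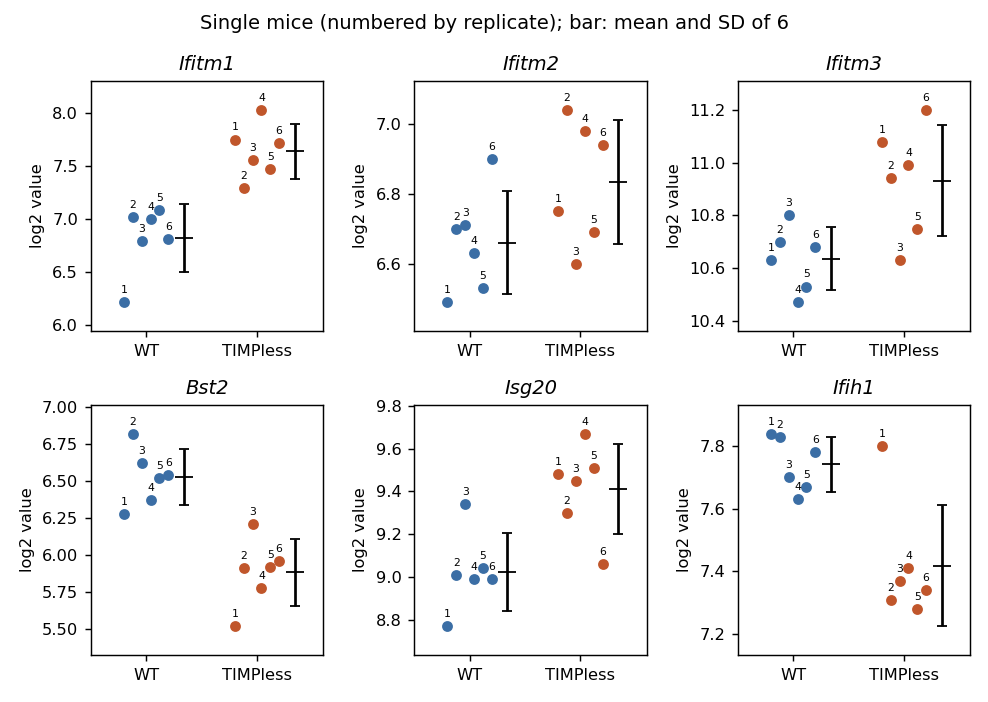
Log2 values of Ifitm1, Ifitm2, Ifitm3, Bst2, Isg20 and Ifih1 in single mice, numbered by replicate, with the mean and SD of 6 mice per genotype as bars; the axes do not start at 0. The genotypes do not overlap for Ifitm1 and Bst2 and overlap for the other 4 genes.

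Promoter sequences from RefSeq (build GRCm38.p6), running from 250 bases before to 50 bases after a transcript start, were matched for 31 of the 39 measured genes, 6 of which had more than 1 window. For 28 of the 31 a window covers the outermost start of the gene. For Ifitm1, Ifitm2 and Ifit3 the window lies inside the span that RefSeq gives for the gene, so the sequence before their outermost start was not searched. They were searched on both strands for the ISRE core GAAANNGAAA and the GAS core TTCNNNGAA, which may overlap. The ISRE core was found for 15 of the 31 genes (48.4%), beside 3.99% of all genes in the table, and the GAS core for 10 (32.3%), beside 9.55%. The promoters of both called genes and of the 2 uncalled genes with the lowest differences, Ifit1 and Igtp, are shown because the results turn on these genes. The Ifitm1 window, which is the inner one just described, has neither core. Capitals mark ISRE core matches, on either strand, in sequences written 5′ to 3′ along the gene. The Ifitm1 window lies at chr7:140967826-140968125 on the plus strand and the Bst2 window at chr8:71537423-71537722 on the minus strand. The Ifit1 window lies at chr19:34640639-34640938 and the Igtp window at chr11:58199306-58199605, both on the plus strand.
Ifitm1: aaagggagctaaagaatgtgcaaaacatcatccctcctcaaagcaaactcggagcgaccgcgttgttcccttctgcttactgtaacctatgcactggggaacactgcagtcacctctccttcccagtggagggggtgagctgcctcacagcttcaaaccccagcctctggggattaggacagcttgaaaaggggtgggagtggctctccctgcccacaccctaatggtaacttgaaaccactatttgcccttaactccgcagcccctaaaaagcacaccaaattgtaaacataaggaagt
Bst2: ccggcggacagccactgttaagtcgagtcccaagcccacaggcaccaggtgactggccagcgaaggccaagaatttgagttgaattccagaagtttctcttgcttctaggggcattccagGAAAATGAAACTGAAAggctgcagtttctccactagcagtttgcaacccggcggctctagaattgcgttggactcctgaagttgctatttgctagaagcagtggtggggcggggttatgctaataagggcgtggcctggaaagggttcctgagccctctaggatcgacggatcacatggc
Ifit1: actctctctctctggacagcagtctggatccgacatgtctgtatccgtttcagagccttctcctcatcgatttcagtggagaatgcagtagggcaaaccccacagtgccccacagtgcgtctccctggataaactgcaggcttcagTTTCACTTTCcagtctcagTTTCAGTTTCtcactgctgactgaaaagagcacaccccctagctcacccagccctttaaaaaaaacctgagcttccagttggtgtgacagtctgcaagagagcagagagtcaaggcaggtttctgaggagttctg
Igtp: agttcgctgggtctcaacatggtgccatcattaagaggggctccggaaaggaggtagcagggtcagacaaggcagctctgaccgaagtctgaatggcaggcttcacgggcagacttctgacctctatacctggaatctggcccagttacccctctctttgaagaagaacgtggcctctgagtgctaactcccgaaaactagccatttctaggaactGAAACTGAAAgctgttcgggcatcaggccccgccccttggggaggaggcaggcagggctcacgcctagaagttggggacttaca
In Bst2, 2 overlapping ISRE cores began 130 and 124 bases before the start, and a GAS core that overlaps the first of them began 136 bases before it. Ifit1 had 2 ISRE cores on the reverse strand, 104 and 85 bases before the start, and Igtp had an ISRE core 34 bases and a GAS core 45 bases before it. A match is a description of the sequence and not a bound site. The median log2 difference was -0.15 for the 15 genes with an ISRE core and -0.08 for the 16 without, and the TIMPless mean was lower in 11 of each.

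Among the sensors of viral RNA and DNA, 0 of 4 genes were called. Ifih1, which encodes MDA5, a sensor of long double-stranded RNA, had log2 values of 7.84, 7.83, 7.70, 7.63, 7.67 and 7.78 in WT and of 7.80, 7.31, 7.37, 7.41, 7.28 and 7.34 in TIMPless mice. All TIMPless mice but TIMPless 1 lay below every WT mouse. The difference was -0.32 (SE 0.09, limma adjusted p = 0.0702). Ddx58, which encodes the RNA sensor RIG-I, differed by -0.11, its regulator Dhx58 by -0.14 and the Z-form nucleic acid sensor Zbp1 by 0.10, with limma adjusted p-values of 0.523 to 0.649.

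None of the 5 transcription factors was called, and their differences ran from -0.17 to 0.03 with limma adjusted p-values of 0.373 to 0.97. Stat2, the subunit of ISGF3 that activates transcription, had log2 values of 7.69, 7.91, 7.73, 7.86, 8.05 and 8.12 in WT and of 7.88, 7.76, 7.51, 7.74, 7.67 and 7.81 in TIMPless mice, which overlapped. Irf9, its DNA-binding subunit, had values of 7.56, 8.16, 8.14, 8.06, 8.01 and 7.95 in WT and of 8.17, 7.83, 7.47, 7.89, 7.85 and 7.86 in TIMPless mice. The extremes of both genotypes for Irf9 were nearly the same, with WT 1 and TIMPless 3 lowest.

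Irf7, which drives the transcription of type I interferon genes, had values of 6.74, 7.44, 7.05, 7.11, 6.95 and 7.16 in WT and of 7.39, 6.99, 6.75, 6.89, 6.58 and 6.99 in TIMPless mice. Irf1, an early factor of the interferon gamma response, had values of 7.08, 7.08, 6.97, 7.22, 7.24 and 7.25 in WT and of 7.40, 7.09, 6.76, 7.20, 6.95 and 7.13 in TIMPless mice. For both genes TIMPless 1 was the highest of the TIMPless mice. Irf8, a factor of myeloid and B cell development, had values of 6.15, 7.24, 6.64, 6.73, 7.13 and 7.38 in WT and of 7.77, 6.55, 6.56, 7.06, 6.63 and 6.86 in TIMPless mice. Its genotype means differed by 0.03 (SE 0.24), yet single mice of each genotype lay more than 1 log2 unit apart. The dimmer probe set of Irf8 differed by 0.14.

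The genes of the ISG15 system had 0 of 3 called and differences of -0.21 to -0.07. They were Isg15, a ubiquitin-like protein attached to other proteins, Usp18, which removes it and damps the type I receptor, and Trim25, a ubiquitin ligase. Of the 9 measured effectors that act on RNA, 0 were called. Isg20, an exonuclease, had log2 values of 8.77, 9.01, 9.34, 8.99, 9.04 and 8.99 in WT and of 9.48, 9.30, 9.45, 9.67, 9.51 and 9.06 in TIMPless mice. WT 3 lay in the TIMPless range, TIMPless 2 and TIMPless 6 lay in the WT range, and the remaining mice were separate. The difference was 0.39 (SE 0.11, limma adjusted p = 0.0775).

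Ifit1, which binds viral RNA that lacks the host's cap marks, had the lowest difference among the uncalled members. Its values were 6.55, 6.61, 6.61, 7.22, 7.09 and 6.69 in WT and 6.75, 6.57, 6.43, 6.16, 5.82 and 6.53 in TIMPless mice, so WT 4 and WT 5 were high, TIMPless 5 was low and the middle values overlapped. The difference was -0.42 (SE 0.16, limma adjusted p = 0.209). Its relatives Ifit2 and Ifit3 differed by -0.08 and 0.07. The synthetases Oas2 and Oas3, which make the oligoadenylates that activate RNase L, differed by -0.01 and 0.08. Oasl1, a relative that in mice represses the translation of Irf7, differed by -0.12, Oasl2 by -0.32 and the RNA-activated kinase gene Eif2ak2 by -0.18.

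Besides Ifitm1 and Bst2, 7 genes acted on membranes or virus replication and 0 of these were called. Rsad2 encodes viperin, a radical enzyme that makes a chain-terminating nucleotide, and Cmpk2, its neighbour on chromosome 12, encodes a mitochondrial nucleotide kinase. These genes varied most among mice of 1 genotype, with pooled within-genotype SDs of 0.63 and 0.59. Rsad2 had log2 values of 7.45, 8.54, 8.33, 8.0, 8.49 and 8.32 in WT and of 8.50, 6.89, 8.32, 9.19, 8.07 and 7.56 in TIMPless mice. Cmpk2 had values of 7.52, 8.15, 7.56, 7.92, 8.02 and 7.96 in WT and of 8.47, 6.52, 6.99, 8.43, 7.49 and 7.13 in TIMPless mice. For both genes TIMPless 1 and TIMPless 4 were the highest of all or among the highest, and TIMPless 2 was the lowest of the 12 mice. The differences were -0.10 (SE 0.32, limma adjusted p = 0.908) for Rsad2 and -0.35 (SE 0.30, limma adjusted p = 0.597) for Cmpk2. That of Cmpk2 was -0.15 without TIMPless 2, -0.54 without TIMPless 1, -0.54 without TIMPless 4 and -0.82 without TIMPless 1 and TIMPless 4 together.

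The dynamin-like GTPase genes Mx1 and Mx2, which are defective in most laboratory strains including C57BL/6, differed by 0.09 and -0.17, and Rtp4 by -0.32. Of the GTPases induced by interferon gamma, 0 of 3 measured were called, and all had lower TIMPless means. Igtp, which acts at the vacuoles of intracellular parasites, had values of 6.44, 7.09, 7.15, 6.68, 7.23 and 6.91 in WT and of 6.92, 6.25, 6.32, 6.92, 6.12 and 6.60 in TIMPless mice. TIMPless 1, TIMPless 4 and TIMPless 6 lay among the WT mice, and the difference was -0.40 (SE 0.17, limma adjusted p = 0.263). Gbp3 and Irgm1 differed by -0.20 and -0.15. The antigen processing genes Psmb8 and Psmb9, subunits of the immunoproteasome, and Tap1, a subunit of the peptide transporter, differed by -0.09 to 0.05 with limma adjusted p-values of 0.828 to 0.992. The remaining induced genes were Xaf1, a promoter of apoptosis, at -0.33 (limma adjusted p = 0.182), Parp14, an ADP-ribosyltransferase, at -0.19, and Ifi35 at -0.15, with its dimmer probe set at 0.08.

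Several of the best known members were dim in both genotypes. The WT and TIMPless means of Isg15, Ifit2, Mx1, Mx2, Gbp3, Irgm1 and Psmb9, 7 of the 39 genes, were below the median of each of the 12 arrays, and so was the TIMPless mean of Oasl1. A change in these genes might not be detectable by their probe sets.

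Single mice differed more in these genes than in most. The pooled within-genotype SD had a median of 0.222 over the 39 genes and of 0.166 over all genes, and 33 of the 39 lay above the latter. It was 0.151 for genes brighter than the overall median and 0.183 for dimmer ones. In WT mice the median SD was 0.198 for the members and 0.161 for all genes, and in TIMPless mice it was 0.248 and 0.155. The SD was larger in TIMPless than in WT mice for 30 of the 39 genes (76.9%), beside 48.0% of all genes. Without TIMPless 1 that count was 21 of 39, and the matching share of all genes was not computed. The TIMPless medians were then 0.192 for the members and 0.151 for all genes.

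TIMPless 1 was the highest of the 6 TIMPless mice for 28 of the 39 genes (71.8%), beside 13.7% of all genes. It was the lowest for 1 gene, Bst2. TIMPless 3 was the lowest TIMPless mouse for 16 genes (41.0%), beside 15.1% of all genes. Among the WT mice, WT 1 was the lowest for 25 genes (64.1%), beside 23.7% of all genes, and WT 2 was the highest for 12 (30.8%), beside 14.0%. The colour map shows TIMPless 1 mostly in red and WT 1 and TIMPless 3 mostly in blue.

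**Figure D3:**
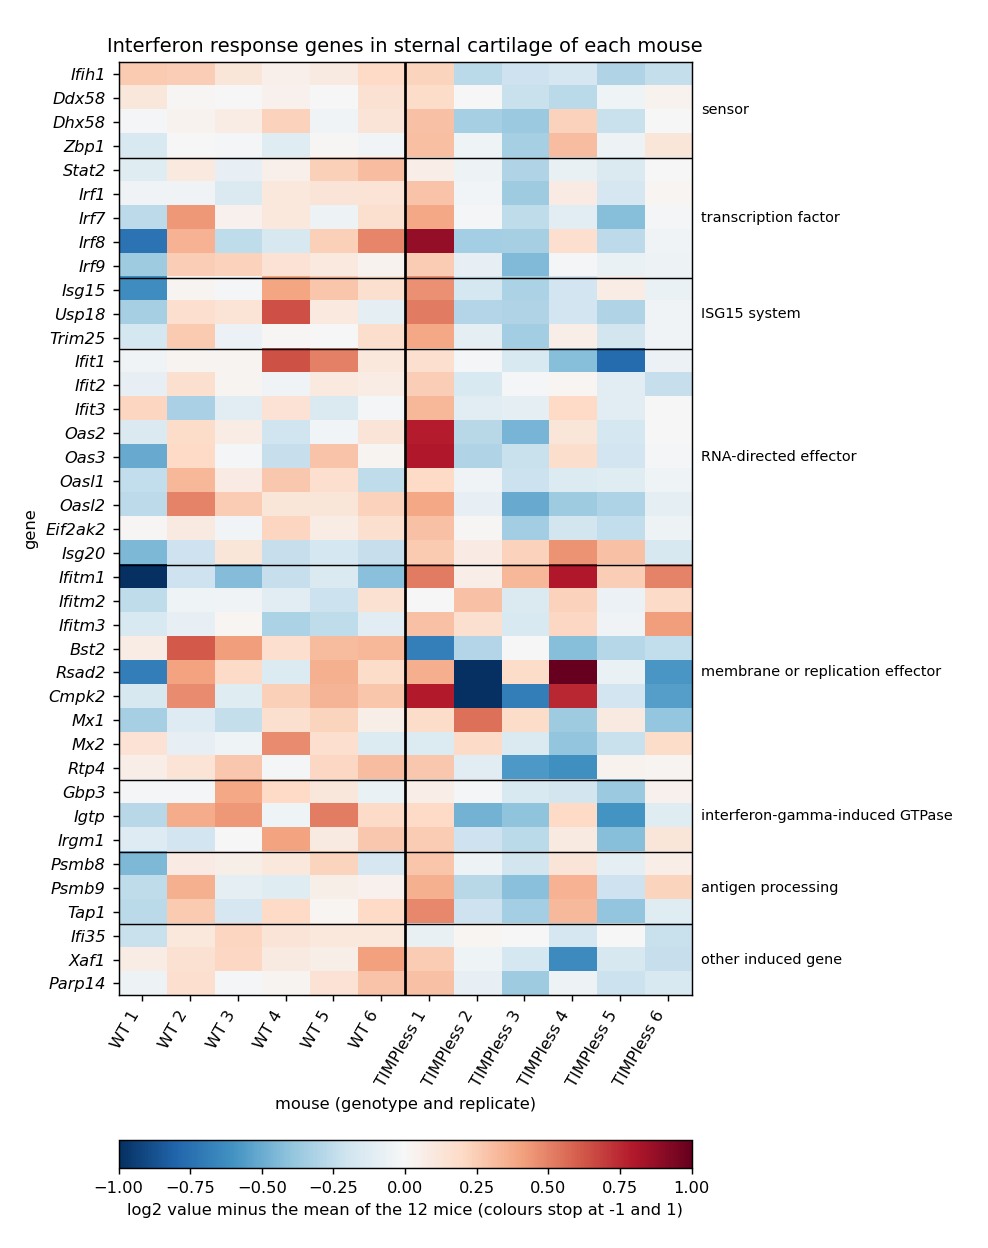
Log2 value minus the mean of the 12 mice for each of the 39 interferon response genes (rows, grouped by role) in each mouse (columns, with WT left of the black line); the colour scale stops at -1 and 1. TIMPless 1 is the highest TIMPless mouse in 28 rows and WT 1 the lowest WT mouse in 25 rows.

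The largest spread after Rsad2 and Cmpk2 was in Irf8 (SD 0.46), Oas3 (0.35), and Oas2 (0.33). Oas3 had log2 values of 5.99, 6.69, 6.47, 6.26, 6.78 and 6.52 in WT and of 7.29, 6.19, 6.27, 6.67, 6.30 and 6.47 in TIMPless mice. Oas2 had values of 7.02, 7.35, 7.24, 6.97, 7.14 and 7.30 in WT and of 7.95, 6.89, 6.70, 7.29, 6.99 and 7.17 in TIMPless mice. TIMPless 1 was the highest of the 12 mice for both genes and for Irf8. Their genotype differences had limma adjusted p-values of 0.866 to 0.993.

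The mice at the extremes of the list were also at the extremes of B cell markers. As deviations from the mean of the 12 mice, the mean level of the 39 genes was -0.20, 0.13, 0.04, 0.09, 0.11 and 0.10 in WT 1 to 6 and 0.29, -0.14, -0.23, 0.03, -0.17 and -0.05 in TIMPless 1 to 6. For 6 of 7 listed B cell markers that were measured it was -0.35, 0.76, 0.35, 0.09, 0.42 and 0.06 in WT and 1.23, -0.60, -0.85, -0.65, -0.40 and -0.06 in TIMPless mice. Both were highest in WT 2 and TIMPless 1 and lowest in WT 1 and TIMPless 3. The match was not only with B cells. The macrophage markers were also highest in WT 2 and TIMPless 1 and lowest in WT 1. Their lowest TIMPless mouse was TIMPless 2, at -0.12. The mean B cell marker level ran from 6.41 to 7.52 in WT and from 5.91 to 7.99 in TIMPless mice, and 0 of the 6 markers were called.

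Markers of other blood cells were high in TIMPless 1 as well. Its deviation was 1.52 for neutrophil, 0.40 for 10 macrophage and 1.16 for 3 of 8 listed erythroid markers, and in WT 1 these were -1.31, -0.20 and -1.47. TIMPless 4 had 1.64 for neutrophil, 1.72 for erythroid, 0.25 for macrophage and -0.65 for B cell markers beside 0.03 for the interferon response genes. The mean macrophage marker level ran from 8.16 to 8.51 in WT and from 8.24 to 8.76 in TIMPless mice, and the erythroid level from 7.11 to 8.91 and from 6.87 to 10.30. The part of these cells in the spread of the interferon response genes was not tested.

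**Figure D4:**
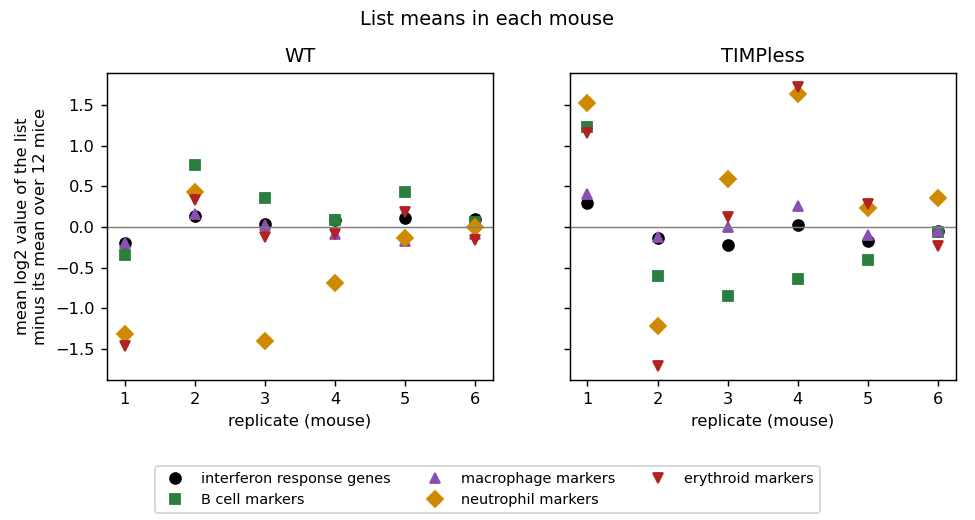
Mean log2 value of each list in each mouse, minus the list's mean over the 12 mice, for WT mice (left) and TIMPless mice (right), numbered by replicate. The interferon response genes stay between -0.23 and 0.29 and share their highest and lowest mouse in each genotype with the B cell markers.

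Of the signalling genes around the response, 47 were listed and 43 measured, and 2 were called, both higher in TIMPless mice. Irf5, Traf3 and Trex1 were among those not analysed here. The median log2 difference of the 43 genes was 0.12, and 6 passed the adjusted p alone, 5 higher and 1 lower. Of all genes, 2.3% were called and 4.93% passed the adjusted p alone. None of 11 interferon genes was called, with differences of -0.25 to 0.20. Ifnb1, the interferon beta gene, differed by 0.05 (limma adjusted p = 0.809) and Ifng by 0.18 (limma adjusted p = 0.352). The lowest adjusted p among them was that of Ifna4, at 0.20 (limma adjusted p = 0.318), though probes for interferon alpha genes may bind transcripts of their near-identical copies. The WT and TIMPless means of Ifnb1, Ifng, Ifna2, Ifnab, Ifne and Ifnk lay under every array median. A change in these interferon genes might not be detectable by their probe sets. The 6 receptor genes had higher TIMPless means, by 0.10 to 0.28, and 0 were called. Ifngr1 differed by 0.26 (limma adjusted p = 0.113) without overlap, with WT mice up to 10.45 and TIMPless mice from 10.49. Ifnar1 differed by 0.13 (limma adjusted p = 0.279) and Ifnar2 by 0.10 (limma adjusted p = 0.572).

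Stat3, a factor activated by interleukin-6 family cytokines and to a lesser degree by interferons, was higher in every TIMPless mouse. Its log2 values were 10.37, 10.41, 10.40, 10.48, 10.48 and 10.54 in WT and 10.71, 10.90, 10.99, 10.83, 10.87 and 10.80 in TIMPless mice, a difference of 0.40 (SE 0.06, limma adjusted p = 0.00391) that lay under 1.5-fold. The receptor kinase Jak2 differed by 0.13 (limma adjusted p = 0.356). Socs3, a feedback inhibitor of cytokine receptors and their kinases, was one of the called genes. Its values were 6.91, 7.03, 6.71, 7.24, 7.08 and 6.94 in WT and 7.65, 8.22, 7.62, 7.78, 7.61 and 7.70 in TIMPless mice, without overlap, and it rose by 0.78 (SE 0.12, limma adjusted p = 0.00292). With the mean of all its probe sets in place of the brightest, Socs3 passed the adjusted p but lay under 1.5-fold and was not called. Ptpn2, a phosphatase that acts on STAT proteins and their kinases, rose without overlap by 0.47 (SE 0.09, limma adjusted p = 0.0142), under 1.5-fold.

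The other called gene was Sting1, the adaptor of cytosolic DNA sensing. Its values were 7.40, 8.02, 7.77, 7.67, 7.66 and 7.86 in WT and 8.62, 8.77, 7.71, 8.29, 8.35 and 8.96 in TIMPless mice, so TIMPless 3 lay within the WT range and the other 5 above it. It rose by 0.72 (SE 0.18, limma adjusted p = 0.0482). With any 1 mouse left out other than TIMPless 3, its adjusted p was 0.0543 to 0.0981 and the call was lost, and without TIMPless 3 it was 0.00649. The adaptor of Toll-like receptors, Myd88, rose by 0.41 (SE 0.10, limma adjusted p = 0.0443) with overlap. Mavs, the adaptor through which MDA5 and RIG-I signal, fell by 0.27 (SE 0.07, limma adjusted p = 0.0441) without overlap, and both stayed under 1.5-fold.

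**Figure D5:**
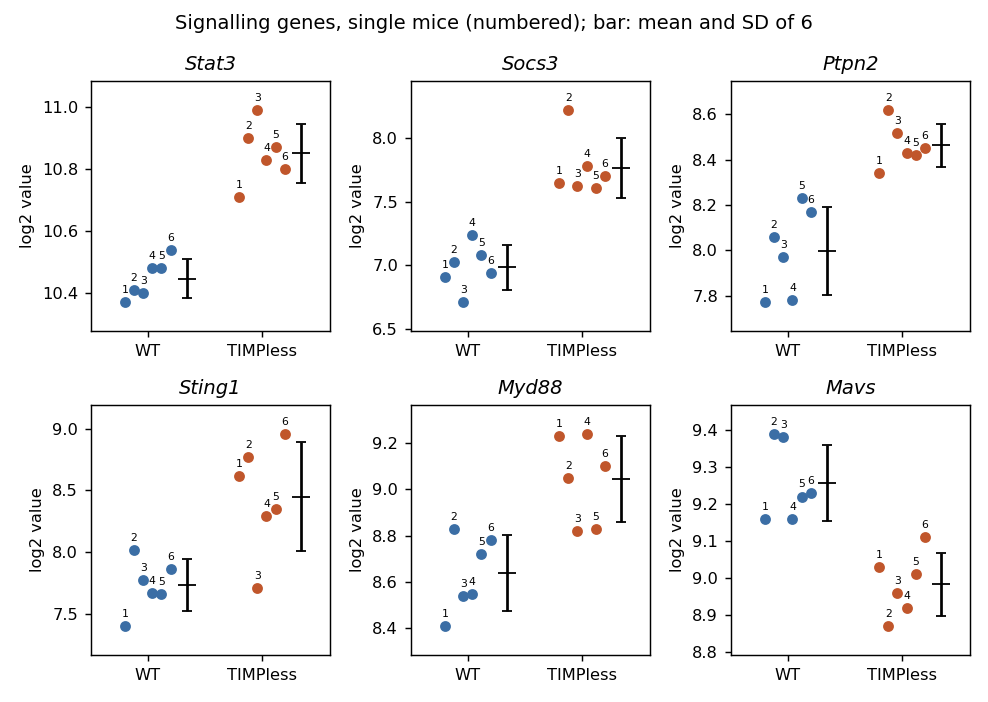
Log2 values of the 6 signalling genes past the adjusted p, in single mice numbered by replicate, with the mean and SD of 6 mice per genotype as bars; the axes do not start at 0. The genotypes overlap for Sting1 and Myd88 and are separate for Stat3, Socs3, Ptpn2 and Mavs, the only one of the 6 that is lower in TIMPless mice.

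Genes of antigen presentation outside the list had 0 of 11 measured genes called and a median difference of -0.02. H2-D1 and Cd74 were not analysed here. The MHC class I genes H2-K1 and B2m differed by -0.11 and -0.02, and Tapbp, which loads peptides onto class I molecules, by -0.26 (limma adjusted p = 0.0803). The MHC class II genes H2-Aa, H2-Ab1 and H2-Eb1 had higher TIMPless means, with differences of 0.18 to 0.21. Ciita, which encodes the class II transactivator, differed by 0.09.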

How the data were processed

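RNA of 12 sternal cartilage samples was hybridized to 1 array per mouse, with 6 WT and 6 TIMPless mice. Robust multiarray average (background correction, quantile normalization and summary per probe set) was run by the authors in Partek to give the deposited log2 values, version 6.6 in the submitters' processing notes. Neither a filter nor the genome build of the annotation was found in the sources used here. Precision depends on the number of mice, since an array has no sequencing depth. Per probe set, TIMPless was compared with WT in limma 3.58.1 under R 4.3.3 (lmFit and eBayes with a term for genotype, 10 residual and 2.93 prior degrees of freedom), with Benjamini-Hochberg adjustment over 41345 probe sets. The fit was tested on simulated data with noise drawn independently for each probe set and array. Such data lack the shifts that genes share within a mouse. Per gene the brightest probe set named for it alone was used. Promoters and gene order came from RefSeq tables of build GRCm38.p6. Storey's q value, the kind of false discovery rate named in the study's methods, was an alternative. The other alternatives changed the probe sets, scaling, variance model or fold threshold, took the replicate number as a block, or left out mice. Values per mouse are given for members called or past the adjusted p, the 6 with the largest difference, the 6 with the largest within-genotype SD and the 5 transcription factors, and Ifitm3 and Ifih1 were added after their values were seen. Of each signalling role, the 2 genes with the smallest adjusted p, Ifnb1, Ifng, Ifnar1 and Ifnar2 were named, and Sting1 was added because it was called. The members and all gene lists were chosen with earlier results of these data known.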

Additional observations from a re-analysis of the deposited data

Results flagged for a closer look

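In 5 cases the highest or lowest of the 6 mice of a genotype stood apart from the others by more than Dixon's 95% criterion, among 78 groups tested (39 genes in each genotype). Chance alone gives such a case in about 1 of 20 groups, or 3.9 here. Of the 5, 3 were WT 1 as the lowest WT mouse: Ifitm1 at 6.21 with the next mouse at 6.79, Irf9 at 7.56 with the next at 7.95, and Ifi35 at 7.58 with the next at 7.91. The other 2 were TIMPless 1 as the highest TIMPless mouse, for Ifih1 at 7.80 with the next at 7.41 and for Usp18 at 7.94 with the next at 7.39. Without WT 1 the difference of Ifitm1 was 0.70 (limma adjusted p = 0.0121).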

How the results depend on the processing

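Ifitm1 and Bst2 were both called with the mean of all probe sets of a gene, with only bright probe sets (31 members), with only probe sets named for 1 gene, with median centring, quantile normalization, a trended and robust variance model, Storey's q value, without WT 5 and WT 6, and at a threshold of 1.2-fold. Without TIMPless 1 and TIMPless 4 together, chosen after seeing the data, 0 were called, although Bst2 and Ifih1 passed the adjusted p. Leaving out 1 mouse gave 1 to 2 called members, with the call of Bst2 lost without WT 2 or TIMPless 1. Members past the adjusted p were 4 under the mean of all probe sets, bright probe sets, named probe sets or quantile normalization, where Ifih1 and Isg20 were added. They were 3 under Storey's q value, where Ifih1 was added, and 2 to 3 with 1 mouse left out. The median difference was -0.18 to -0.07 and the median SD 0.200 to 0.233 with 1 mouse left out. Among signalling genes, 1 was called instead of 2 under the mean of all probe sets (Sting1), and under median centring, without WT 5 and WT 6, and without TIMPless 1 and TIMPless 4 (Socs3 each time), and 1 to 2 with 1 mouse left out.

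With the replicate number as a block, 1 member was called and past the adjusted p, Bst2, with Ifitm1 at a limma adjusted p of 0.0624, and 1 signalling gene. Deviations of same-numbered mice correlated at -0.21 to -0.01 and 0 of 6 mice matched best with their own number, so the numbers were not taken to pair the mice.

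Differences of at most 0.10 in size changed sign in 0 to 4 of the 39 members with 1 mouse left out, in 4 without WT 5 and WT 6, in 6 without TIMPless 1 and TIMPless 4 and in 1 under median centring or quantile normalization, and 0 of these were called. Of the members given per mouse, Oas2 was 0.00167 under median centring, 0.00979 under quantile normalization and 0.02 without WT 5 and WT 6. Without those mice Irf1 was 0.000833 and Rsad2 0.00833, and without TIMPless 1 and TIMPless 4 Irf8 was -0.23 and Oas3 -0.14. With 1 mouse left out the differences were -0.114 to 0.014 for Irf1, -0.146 to 0.127 for Irf8, -0.162 to 0.088 for Oas2, -0.0717 to 0.148 for Oas3 and -0.32 to 0.14 for Rsad2. Brightness limits what the arrays can show for the 7 members under every array median.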

Other observations

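Ifitm5, Ifitm6 and Ifitm10, other genes of the Ifitm family on chromosome 7, were looked at after the values of Ifitm1 had been seen. All 3 had higher TIMPless means and 0 of 3 passed the adjusted p. Ifitm5, a family member transcribed in osteoblasts, had log2 values of 8.72 to 10.08 in WT and 9.91 to 10.46 in TIMPless mice (difference 0.65, SE 0.19, limma adjusted p = 0.0947). Ifitm6 ran from 7.39 to 9.63 in WT and from 8.34 to 12.14 in TIMPless mice (difference 1.75, SE 0.57, limma adjusted p = 0.123). Its highest values, 12.14 and 11.51, were in TIMPless 4 and TIMPless 1, and its lowest in either genotype were in WT 3 and TIMPless 2, which are also the mice with the highest and lowest neutrophil marker levels. Ifitm10 ran from 6.95 to 7.45 in WT and from 7.46 to 7.88 in TIMPless mice, without overlap (difference 0.39, SE 0.10, limma adjusted p = 0.0607).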
